A study of Equus caballus with 10 samples.

Results

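The genes described are 10 of the 29196 genes in the deposited table: 6 ligands of the epidermal growth factor (EGF) receptor family (EREG, AREG, HBEGF, TGFA, BTC and NRG1), 3 of its receptors (EGFR, ERBB2 and ERBB3) and ERRFI1, an inhibitor of the receptors inside the cell. The members were chosen by gene symbol at a time when the values of the comparison below were already known, so their differences between the groups are given as a description and carry no p-value. All 10 were found in the table, and all 10 passed the filter on low values. They were measured by RNA sequencing in primary equine tendon cells (tenocytes) from the superficial digital flexor tendon of 5 donor horses, called donors 1 to 5, each of which gave 1 library to each of 2 groups. The group with PF-06650833 alone received this inhibitor of the kinase IRAK-4 daily at 100 nM during 14 days of 3D culture in collagen gels. The group with IL-1β plus PF-06650833 received the same inhibitor and also the inflammatory cytokine IL-1β at 17 ng/ml every 3 to 4 days. These are called inhibitor-only gels and IL-1β gels here, although the inhibitor and a medium with serum were common to both. Gels without PF-06650833 were not analysed here. Estimated reads on genes numbered between 26489787 and 35920765 per library, and the values of any 2 libraries had a Pearson correlation across genes of at least 0.966.

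ERBB receptors are tyrosine kinases at the cell surface that act as pairs. Most ligands are made as membrane-bound precursors and are released by shedding proteases such as ADAM17. EREG (epiregulin), AREG (amphiregulin), HBEGF (heparin-binding EGF-like growth factor), TGFA (transforming growth factor alpha) and BTC (betacellulin) bind EGFR, some of them also ERBB4, while NRG1 (neuregulin 1) binds ERBB3 and ERBB4. ERBB2 has no known ligand and ERBB3 has little kinase activity, so each depends on a partner. Receptor activation leads to RAS, RAF and ERK signalling, and ERRFI1 is among the genes that this signalling induces and that then restrain the receptors. In fibroblasts the pathway is known for its part in proliferation, migration and wound repair.

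Of the 10 members, EREG and NRG1 were the only genes called differentially expressed, and both were higher in the IL-1β gels. The other 4 ligands, the 3 receptors and ERRFI1 were not. A gene was called at an adjusted p below 0.05 (limma with Benjamini-Hochberg adjustment over 17992 genes) and a log2 difference of at least 1 in either direction, and 6.68% of all genes tested were called, 3.11% as higher and 3.57% as lower. EREG and NRG1 were also the only members whose groups did not overlap, which was the case for 12.7% of all genes tested. Since the choice of members used this contrast, nothing is read from these counts. Values are variance-stabilized log2 expression, on which a gene without reads stands at 3.433 and differences between low values are compressed. The median difference over the members was 0.17, against -0.01 over all genes tested.

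EREG encodes epiregulin, a ligand of EGFR and ERBB4. In the inhibitor-only gels its log2 expression was 7.83 in donor 1, 9.53 in donor 2, 7.98 in donor 3, 7.52 in donor 4 and 9.64 in donor 5. In the IL-1β gels it was 12.51, 14.07, 11.91, 11.32 and 14.74 in the same order of donors. Every library of the IL-1β gels lay above every library of the inhibitor-only gels, and donors 2 and 5 were the highest in both groups. The group means were 8.50 ± 1.00 (SD, n = 5) and 12.91 ± 1.45 (SD, n = 5), a log2 difference of 4.41 (standard error 0.67). The differences within a donor were closer together than the levels themselves, from 3.79 in donor 4 to 5.11 in donor 5, with an SD of 0.55. As normalized counts, obtained by reversing the variance stabilization, EREG was between 163 and 775 in the inhibitor-only gels and between 2526 and 27430 in the IL-1β gels. The ratio of these counts within a donor was 28.2, 24.1, 16.5, 15.5 and 35.4 in donors 1 to 5.

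NRG1 encodes neuregulin 1, a ligand of ERBB3 and ERBB4 with several isoforms, which were not separated here. It was close to the value without reads in all 5 libraries of the inhibitor-only gels, at 4.14 in donor 1, 4.55 in donor 2, 4.06 in donor 3, 4.77 in donor 4 and 4.20 in donor 5. These values rest on an estimated 2 to 9 reads per library. In the IL-1β gels NRG1 was at 9.99, 10.26, 6.92, 7.08 and 10.83 in donors 1 to 5, on an estimated 81 to 1550 reads. The libraries with IL-1β were all above those without it, and among them donors 1, 2 and 5 lay well above donors 3 and 4. The means were 4.35 ± 0.30 (SD, n = 5) and 9.02 ± 1.87 (SD, n = 5), with a log2 difference of 4.67 (standard error 0.73). Within donors the log2 difference ran from 2.31 in donor 4 to 6.63 in donor 5, with an SD of 1.95 against the 0.55 of EREG. The mean normalized count was 4.95 in the inhibitor-only gels and 844 in the IL-1β gels, a ratio of 171. On a log2(normalized count + 1) scale, which compresses low values less, the difference was 6.51.

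**Figure D1:**
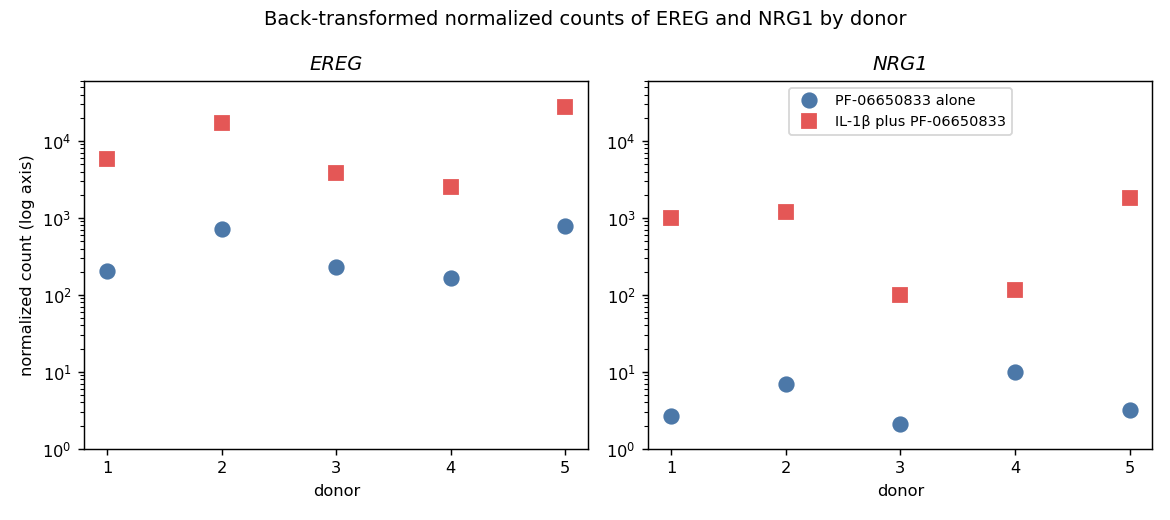
Normalized counts of EREG (left) and NRG1 (right) on a log axis for each of the 5 donors, with circles for inhibitor-only gels and squares for IL-1β gels. EREG lies between 163 and 775 in the inhibitor-only gels and at 2526 or more with IL-1β, while NRG1 is at 10.0 or less in the inhibitor-only gels.

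The other ligands of EGFR had overlapping groups. HBEGF, which binds heparin as well as EGFR and ERBB4, was at 9.97, 10.16, 10.38, 8.92 and 9.50 in donors 1 to 5 in the inhibitor-only gels. In the IL-1β gels it was at 9.65, 10.48, 9.93, 9.53 and 10.37. It was higher with IL-1β in donors 2, 4 and 5 and lower in donors 1 and 3, with a log2 difference of 0.21 (standard error 0.28). TGFA, a ligand of EGFR, was at 8.20, 7.67, 7.84, 9.86 and 8.20 in the inhibitor-only gels and at 8.17, 8.97, 7.69, 8.54 and 9.11 in the IL-1β gels. Donor 4 stood above the other donors in the first of these groups and not in the second. The log2 difference of TGFA was 0.14 (standard error 0.41) and became 0.52 without the library of donor 4 in the inhibitor-only gels. Its donor differences ran from -1.32 to 1.30, so the mean near 0 is made of opposite differences in single donors.

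AREG and BTC had few reads. AREG, a ligand of EGFR, was at 4.09, 5.38, 4.81, 3.43 and 5.91 in the inhibitor-only gels and at 4.12, 6.57, 4.10, 3.43 and 6.41 in the IL-1β gels. Both libraries of donor 4 had no reads of AREG, and donors 2 and 5 had the most in both groups, with an estimated 17 and 39 reads in the inhibitor-only gels and 66 and 56 in the IL-1β gels. The log2 difference between the groups was 0.20 (standard error 0.68). BTC, a ligand of EGFR and ERBB4, was at 3.43, 5.08, 3.93, 4.20 and 5.39 in donors 1 to 5 of the inhibitor-only gels and at 3.43, 4.89, 4.09, 4.30 and 4.34 in the IL-1β gels. Estimated reads of BTC reached 22 at most, and neither library of donor 1 had any. The log2 difference was -0.19 (standard error 0.39). These standard errors include the spread between donors, and with the donor as a block they were 0.27 for AREG and 0.22 for BTC, neither of which was then called.

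None of the receptors was called, and the groups overlapped for each. EGFR, the receptor of most of these ligands, was at 9.76, 9.63, 10.18, 9.90 and 9.58 in donors 1 to 5 in the inhibitor-only gels and at 9.39, 9.72, 9.82, 10.66 and 9.30 in the IL-1β gels. The log2 difference was -0.03 (standard error 0.24), and the donor differences ran from -0.37 in donor 1 to 0.75 in donor 4. These values rest on an estimated 524 to 1127 reads per library. ERBB2, the co-receptor without a ligand, was at 10.52, 11.16, 10.71, 10.92 and 11.15 in the inhibitor-only gels and at 10.27, 10.28, 10.83, 10.71 and 10.20 in the IL-1β gels. It was lower in 4 of 5 donors, by 0.96 in donor 5 and by less in donors 1, 2 and 4, while donor 3 was 0.12 higher. The group means were 10.89 ± 0.28 (SD, n = 5) and 10.46 ± 0.29 (SD, n = 5). The log2 difference of -0.43 (standard error 0.17) met neither the adjusted p nor the minimum difference needed for a call. ERBB3, a receptor of NRG1, was at 3.43, 4.65, 3.94, 3.43 and 4.93 in the inhibitor-only gels, on 0 to 12 estimated reads. In the IL-1β gels it was at 4.92, 5.50, 4.10, 4.33 and 4.88, on 2 to 23 estimated reads. Its log2 difference was 0.67 (standard error 0.36), higher in 4 of 5 donors, and on the log2(normalized count + 1) scale it was 1.63, also not called. ERBB4, the other receptor of NRG1, had no reads in any of the 10 libraries, which allows up to 3 reads per library, and was not tested.

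ERRFI1, also called MIG6, binds the kinase domain of EGFR and ERBB2 and inhibits it. It was at 12.43, 12.05, 11.81, 11.49 and 11.64 in donors 1 to 5 in the inhibitor-only gels and at 11.98, 12.16, 11.87, 10.59 and 12.50 in the IL-1β gels. It was higher with IL-1β in donors 2, 3 and 5 and lower in donors 1 and 4, and the log2 difference was -0.06 (standard error 0.32) on an estimated 1077 to 4962 reads per library. Donor 4 had the lowest ERRFI1 of both groups and, with IL-1β, the highest EGFR.

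**Figure D2:**
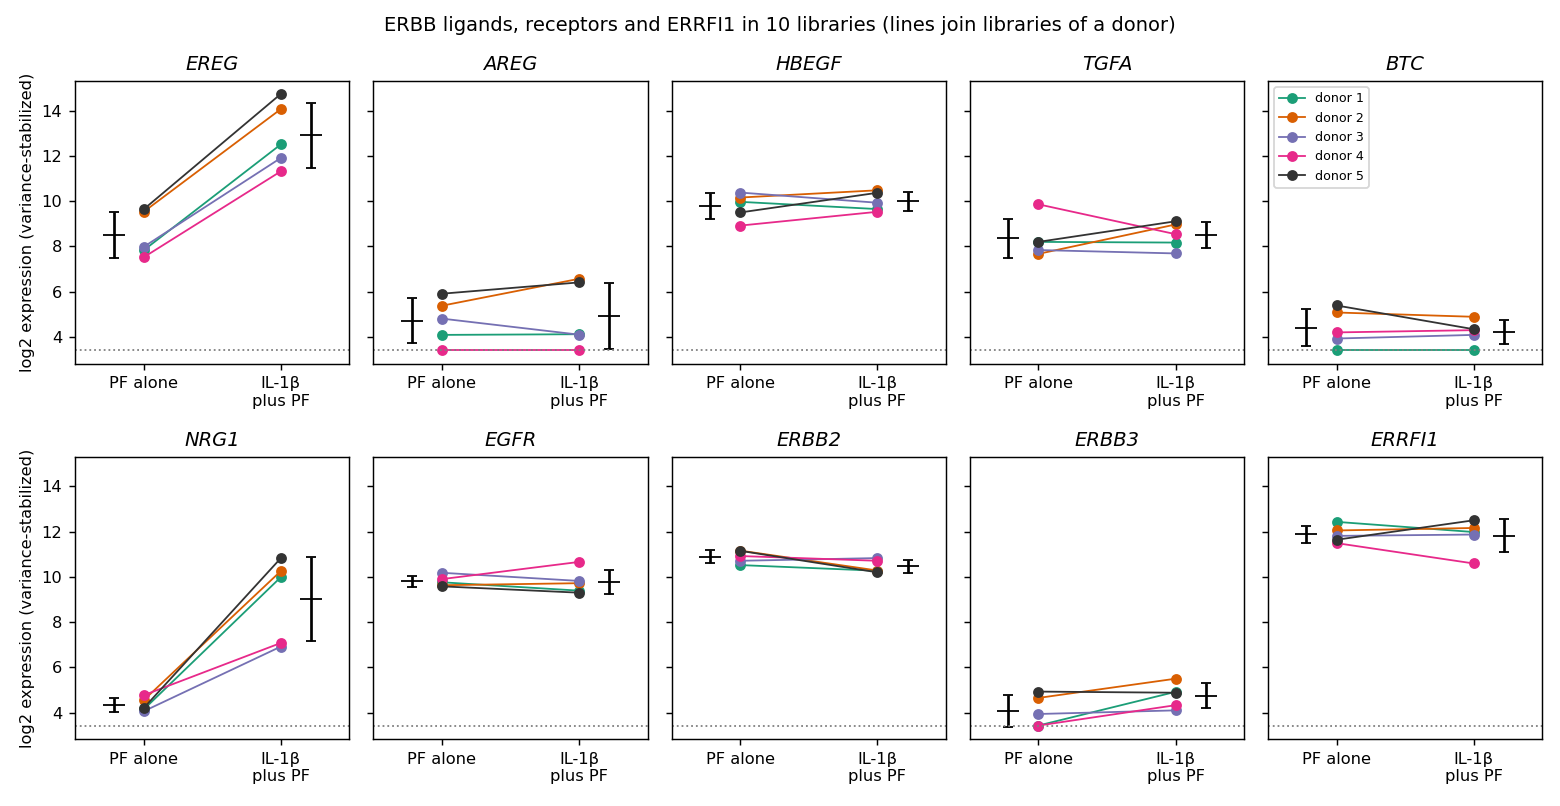
Variance-stabilized log2 expression of the 10 members in each library, with a line joining the 2 libraries of a donor, the mean ± SD of each group of 5 as a black bar, and a dotted line at the value without reads (3.433). EREG and NRG1 are higher in the IL-1β library of all 5 donors, and in the other panels the groups overlap.

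**Figure D3:**
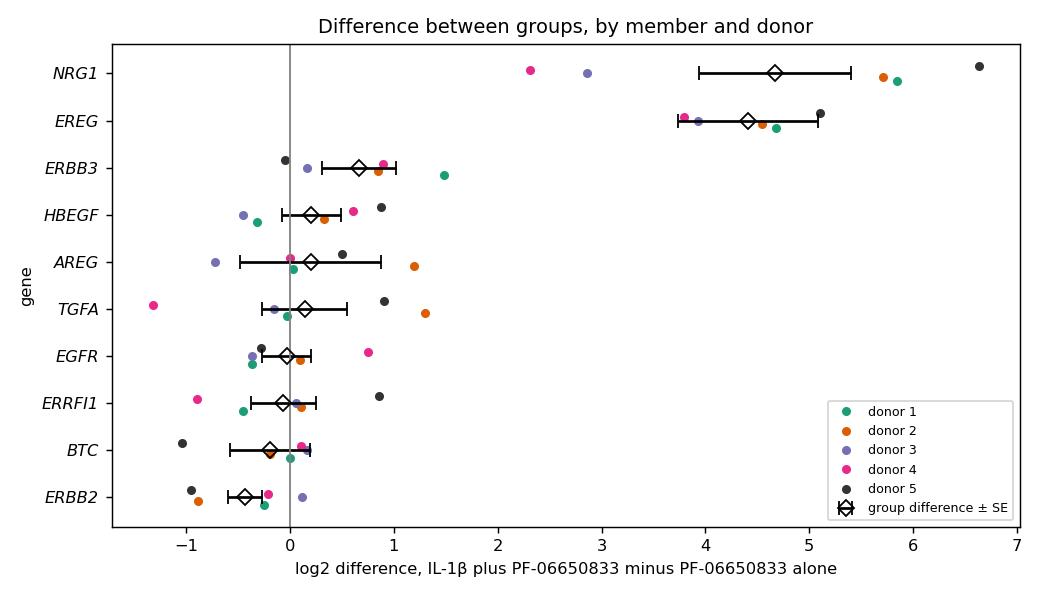
Log2 difference between IL-1β gels and inhibitor-only gels for each member, with the 5 donors as dots and the group difference with its standard error as a diamond. The group differences of EREG (4.41) and NRG1 (4.67) stand apart from those of the other members, which lie between -0.43 and 0.67.

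The 4 ligand genes BTC, AREG, EREG and EPGN follow each other in this order in the RefSeq gene table of the TB-T2T horse assembly, with no other protein-coding gene listed between them. EPGN (epigen), a low-affinity ligand of EGFR, is not a member and belongs to a list of 6 other ligands and receptors (EGF, EPGN, NRG2, NRG3, NRG4 and ERBB4) drawn up by role. EPGN was at 4.32, 5.40, 3.92, 3.43 and 5.47 in donors 1 to 5 in the inhibitor-only gels and at 5.53, 6.71, 6.39, 5.45 and 7.57 in the IL-1β gels. It rose in 5 of 5 donors, by a log2 difference of 1.82 (standard error 0.50, adjusted p = 0.031 from limma), although the lowest library with IL-1β, at 5.45, lay just below the highest without it. The estimated reads of EPGN were 0 to 24 in the inhibitor-only gels and 18 to 145 with IL-1β, and its difference was 3.29 on the log2(normalized count + 1) scale and 3.58 with 0.5 added instead of 1. With the donor as a block the standard error of EPGN was 0.23 and it stayed called (adjusted p = 0.00202 from limma). When single libraries or donors were left out of the fit without a block, the call was lost in 9 of 15 fits. These were the fits without the inhibitor-only library of donor 1 (adjusted p = 0.0658), donor 3 (0.0633) or donor 4 (0.0721), and without the IL-1β library of donor 2 (0.0744) or donor 5 (0.0651). They were also those without both libraries of donor 1 (0.0766), donor 2 (0.0706), donor 3 (0.0922) or donor 5 (0.0501), all from limma. Of these 4 neighbours EREG and EPGN were thus called, and AREG and BTC, with few reads, were not, while 6.68% of all genes tested were called. EREG, AREG and BTC are members, and both the members and the list with EPGN were chosen with earlier results of these data known. Nothing is therefore read from these calls about the neighbouring genes.

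**Figure D4:**
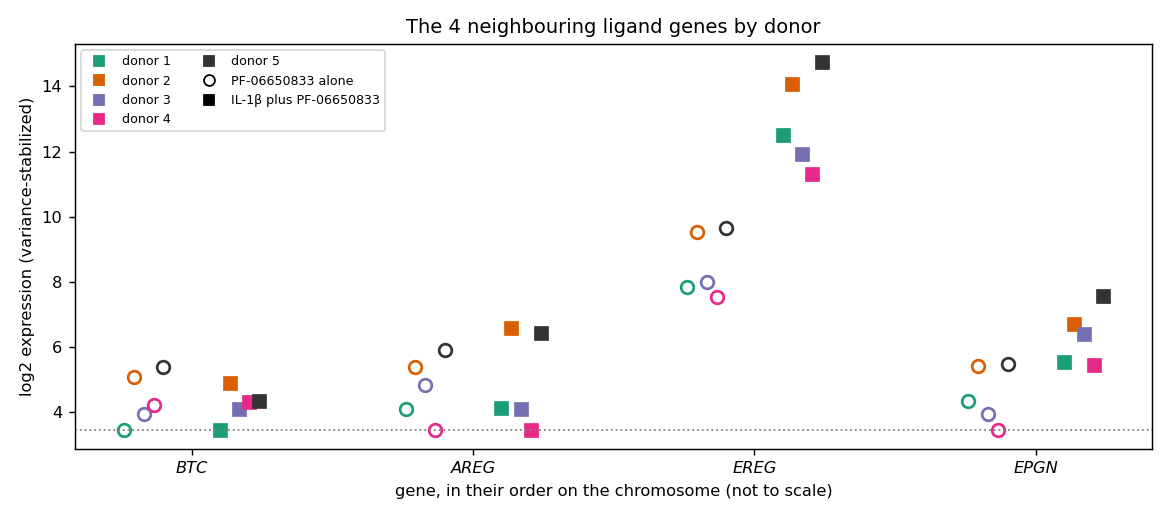
Log2 expression of BTC, AREG, EREG and EPGN, drawn in their chromosomal order but not to scale, with open circles for inhibitor-only gels, filled squares for IL-1β gels and a colour for each donor. Donors 2 and 5 are above the other donors for each of the 4 genes in both groups, for BTC in the IL-1β gels by as little as 4.34 against 4.30.

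NRG2, a neuregulin that binds ERBB3 and ERBB4, and NRG4, one that binds ERBB4, were tested and not called. The log2 difference was -0.10 for NRG2 (adjusted p = 0.867 from limma) and -0.19 for NRG4 (adjusted p = 0.455 from limma), with standard errors of 0.31 and 0.15. EGF, NRG3 and ERBB4 stood at the value without reads in all 10 libraries and were not tested. Of the 3 tested genes of this list 1 was called, which was EPGN, and of all genes tested 6.68% were called.

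The level of EREG also differed between donors. This was tested with the donor term of limma's fit that has the donor as a block, which does not use the difference between the groups, and the test was chosen after the values had been seen. Each donor is represented by a single cell line, so this term cannot tell the horse from the handling of its cells. EREG (adjusted p = 0.0146) and AREG (adjusted p = 0.0409) were called for this term by limma, against 2.76% of all genes tested, and the other 8 members were not, with adjusted p-values from 0.132 to 0.724. The call of EREG held in all 10 alternatives run for this term. That of AREG held in 5 of them and was lost without donor 1 (adjusted p = 0.0859), donor 4 (0.0907) or donor 5 (0.0849), under quantile normalization (0.0602) and without the mean-variance trend (0.0551). Donors 2 and 5 were above the other donors in both groups for EREG, AREG and BTC among the members, although for BTC in the IL-1β gels donor 5 (4.34) hardly differed from donor 4 (4.30). For HBEGF, TGFA, NRG1 and ERRFI1 this order was found in the IL-1β gels but not in the inhibitor-only gels, for ERBB2 and ERBB3 the reverse was found, and for EGFR in neither group. Deviations of EREG and AREG from their group means had a Pearson r of 0.953 over the 10 libraries, which come from 5 donors and are not independent, so this is a description without a test. On the same measure EREG had an r of 0.813 with ERBB3, which had few reads, of 0.712 with NRG1 and of -0.701 with EGFR. With the remaining members it was between -0.174 and 0.62.

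By the same measure the 3 genes with a symbol most like NRG1 were SRGN (r = 0.986 over 10 libraries), C7H19orf24 (0.981) and EIF6 (0.981). They are the highest among all genes with a symbol that passed the filter, so a high r was sought. NRG1 varied mostly in the IL-1β gels (SD 1.87 against 0.30), so each r rests mainly on those 5 libraries. SRGN, which encodes the proteoglycan core protein serglycin, was at 10.87, 10.58, 7.57, 7.91 and 11.83 in donors 1 to 5 in the IL-1β gels, so donors 1, 2 and 5 again lay above donors 3 and 4. In the inhibitor-only gels it was between 5.98 and 6.40. The measure leaves out the difference between the groups, which was 3.53 for SRGN, 0.20 for C7H19orf24 and 0.18 for EIF6 on the log2 scale.

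The remaining genes of the pathway came from lists drawn up by role, with earlier results of these data known, so their counts are a description. Of 5 tested genes of ligand shedding and trafficking 0 were called by limma, with 2 at an unadjusted p below 0.05 and a median log2 difference of 0.22, while RHBDF2 was not analysed here. ADAM10, a sheddase of BTC among other substrates, was named after its values were seen. Its log2 difference of 0.49 (adjusted p = 0.00851 from limma, higher in 5 of 5 donors) was below the minimum fold change. ADAM17, the main sheddase of AREG, EREG, HBEGF and TGFA, had a log2 difference of 0.22 (adjusted p = 0.107 from limma). Of 14 brakes on the receptors or on ERK signalling 0 were called, with 4 at an unadjusted p below 0.05 and a median of -0.09. Among them LRIG1, which promotes degradation of ERBB receptors and was also named after its values were seen, had a log2 difference of -0.91 (adjusted p = 0.0254 from limma). It passed the minimum fold change without donor 3 or donor 4 (-1.17 and -1.06), without their inhibitor-only libraries (-1.01 and -1.06) and without the IL-1β library of donor 3 (-1.07). The adjusted p of LRIG1 from limma was above 0.05 without donor 1, 2 or 5 (0.123, 0.121 and 0.128). It was also above 0.05 when 1 library of donor 1, 2 or 5 was left out (0.053 to 0.0653). Differences in the list of brakes ran from -0.91 to 0.72, so they went in both directions. SPRY4 (0.72) and SPRY2 (0.71, higher in 5 of 5 donors), named after their values were seen, had the opposite sign to LRIG1. Neither was called in the main fit.

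Of 24 adaptors and kinases between the receptors and ERK or AKT 0 were called by limma, with 9 at an unadjusted p below 0.05 and a median log2 difference of -0.01. The 4 of them with an adjusted p below 0.05 from limma had smaller differences than the minimum, and 3 of these are named here, after their values were seen. MAP2K2, which encodes the ERK kinase MEK2, had a log2 difference of 0.52 (adjusted p = 0.00938 from limma). The phosphatase gene PTPN11 and the PI3-kinase subunit gene PIK3R1 had differences of -0.36 and -0.81 (adjusted p = 0.0143 and 0.0232 from limma).

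Of 16 genes that ERK signalling is known to induce, 4 were called, all higher in the IL-1β gels. Of all genes tested 6.68% were called, 3.11% as higher. The median log2 difference of the list was 0.46, against -0.01 for all genes tested. Since this list was drawn up with earlier results of these data known, nothing is read from its count or its median. IER3, an early response gene that NF-κB also induces, rose from 11.32 ± 0.39 (SD, n = 5) to 15.38 ± 0.83 (SD, n = 5), by 4.06 (adjusted p = 1.16e-04 from limma). FOSL1, an AP-1 transcription factor, rose by 1.40 (adjusted p = 0.0012 from limma), and the ETS factors ETV1 and ETV4 by 1.17 (adjusted p = 0.00114) and 1.03 (adjusted p = 0.0102). Their standard errors were 0.36, 0.20, 0.16 and 0.22 in this order, and each of them rose in 5 of 5 donors. IER3, FOSL1 and ETV1 were called in each of the 15 fits with a library or donor left out. ETV4 fell below the minimum fold change in 6 of them, namely without the inhibitor-only library of donor 4 (0.91) or donor 5 (0.99), without the IL-1β library of donor 2 (0.97), donor 3 (0.93) or donor 5 (0.95), and without donor 5 (0.92, adjusted p = 0.0629), and under quantile normalization (0.99). The feedback genes DUSP4, DUSP5 and DUSP6, phosphatases that act on ERK, were not called, with log2 differences of 0.32, 0.45 and 0.27. The immediate early genes EGR1 and FOS were not called either, at 0.47 and 0.64. EGR3, PHLDA1 and CCND1 were also not called in the main fit, at 0.45, 0.65 and 0.94. Differences of the opposite sign, also not called, were found for EGR2 (-0.86), ETV5 (-0.48), IER2 (-0.32) and MYC (-0.18), the first 3 of them lower in 4, 4 and 5 of 5 donors. These uncalled genes were named after their values were seen. Across the fits with a library or donor left out, 3 to 6 genes of the list were called, all higher except EGR2, which was called lower without the IL-1β library of donor 3.

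**Figure D5:**
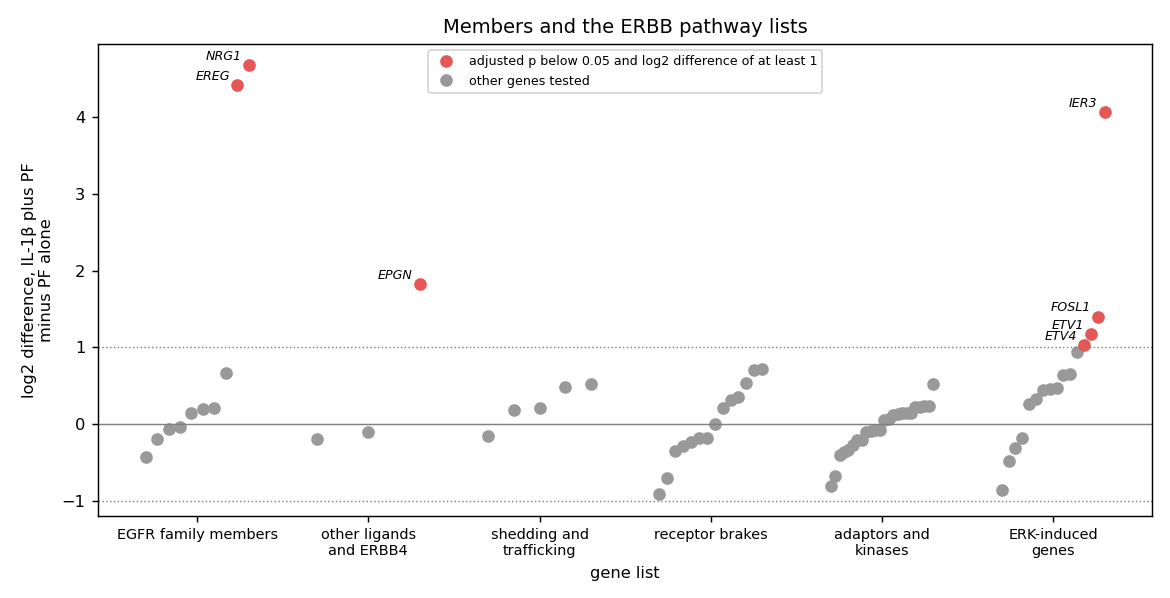
Log2 difference of each tested gene in the members and in the 5 pathway lists, ordered within each list, with called genes in red and named. Called genes are EREG, NRG1, EPGN and 4 ERK-induced genes, and no tested gene of shedding, brakes or adaptors and kinases is beyond the dotted lines at -1 and 1.

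Markers of cell types were examined beside these results. Of 9 tested tenocyte markers 3 were called, all of them lower in the IL-1β gels (the tendon transcription factors SCX by -3.24 and MKX by -2.85, and the matrix gene TNC by -2.04), while TNMD was at the value without reads in all libraries and COL3A1 was not analysed here. In the same list DCN (1.00, higher in 5 of 5 donors) and PDGFRA (0.46, higher in 3 of 5) had differences of the opposite sign and were not called. With the donor as a block, 5 tenocyte markers were called lower. The summed normalized count of the tenocyte list was 865400 to 1426000 in the inhibitor-only gels and 253800 to 1024000 in the IL-1β gels. Of 4 tested epithelial markers, CDH1 was called lower (-2.22). CLDN4 (0.75, higher in 5 of 5 donors) and KRT8 (0.13, higher in 3 of 5) had the opposite sign and were not called. KRT18 (-0.51, lower in 4 of 5) was not called either. EPCAM and KRT5 had no reads in any library, and the sums of the list were 553 to 1589 and 148 to 475. Of 2 tested leukocyte markers CD68 was called higher (1.70), AIF1 and CD3E had no reads in any library, and the sums overlapped at 52.8 to 1757 and 170 to 1908. Of 5 mural cell markers DES (-2.98) and RGS5 (-1.96) were called lower, with sums of 27300 to 198000 and 37270 to 81750, and with the donor as a block ACTA2 (-1.01, adjusted p = 0.0334 from limma) was called lower as well. None of 4 endothelial (0 called, 2 at an unadjusted p below 0.05) or 2 Schwann cell markers (0 called, 0 at an unadjusted p below 0.05) was called by limma, and their sums did not exceed 45.9 and 87.6 in any library. In bulk samples fewer cells of a type and less RNA per cell cannot be told apart, and the part of these markers in the differences of EREG, NRG1 and EPGN was not tested.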

How the data were processed

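RNA was sequenced from 10 libraries, 5 per group, with the treatments and donors taken from the labels. Per the submitters' processing notes and the methods of the study, the authors checked reads with FastQC, quantified them with Salmon (version 1.8) on the EquCab3.0 transcriptome with GC-bias correction, summed them to genes with tximport and used DESeq2 (version 1.36). The authors deposited log2 values. These are not counts, and a lowest value of 3.433 shared by all libraries marks them as variance-stabilized, which the sources used here do not state. Normalized counts and estimated reads were computed by inverting that transformation and from the spacing of low values, and are approximate.

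The tests used limma (version 3.58.1) in R (version 4.3.3), with a trend of variance on mean expression, for genes above 3.433 in at least 5 of 10 libraries, and were tested on simulated data. Alternatives were the donor as block, other filters, scales, normalizations and variance models, and leaving out each library or donor. The members and lists were chosen with earlier results of these data known. Named were all members, the other ligands, up to 4 called genes of each list by adjusted p and the 3 genes most like the member with the largest difference. Gene order came from the RefSeq table of the TB-T2T assembly, in which 23397 names were found; no positions or sequences are given, and levels of different genes were not compared, since transcript lengths were not used here.

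Deviations from the group means were alike within a donor (Pearson r across genes of 0.367 to 0.506 for 5 pairs, against -0.266 to 0.087 for 20 pairs of different donors), so the donor, taken from the titles, pairs the libraries. The main tests have no block, so they measure the spread between donors and do not use this pairing. Those with the donor as a block measure the spread of the differences within donors. The values of 1 gene of the list of adaptors and kinases are not reported here.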

Additional observations from a re-analysis of the deposited data

Results flagged for a closer look

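Among 34 groups of 5 libraries, those of the 10 members and of the 7 other pathway genes named by rule, 2 held a library far from the other 4, where chance gives about 1.7. TGFA was at 9.86 in the inhibitor-only library of donor 4, against 7.67 to 8.20 in the other donors. ETV1 was at 13.34 in the IL-1β library of donor 4, against 13.85 to 14.03 in the other donors.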

How the results depend on the processing

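EREG, NRG1, ERBB2 and ERBB3 kept the direction of their differences in all alternatives that gave a value, EREG between 3.95 and 4.81 and NRG1 between 4.18 and 6.67. EREG and NRG1 stayed called in all of them, which is a description only, since the members were chosen with this contrast known. The smaller differences of AREG, HBEGF, TGFA, BTC, EGFR and ERRFI1 changed sign in 1 to 6 of 22 or 23 alternatives. With the replicate block 1486 genes were called against 1202, and the calls of the 10 members and the number called in each pathway list were the same. Without a minimum fold change 2782 genes were called, with 1 of the shedding genes, 1 of the brakes and 4 of the adaptors and kinases. With a filter that kept genes above the lowest value in all 10 libraries, EPGN was no longer tested, so 0 of the other ligands were called. Across the fits without a library or a donor, the genes called numbered 762 to 1422 (762, 790 and 777 without donor 1, 2 or 5), the other ligands 0 to 1, the brakes 0 to 1 (LRIG1, and SPRY4 without the IL-1β library of donor 4) and the genes called for the donor term 131 (without donor 3) to 634 (without donor 4), with 237 and 316 without donor 1 or 2. Leaving out a donor removes 2 libraries. AREG, BTC, ERBB3 and, in the inhibitor-only gels, NRG1 and EPGN rest on few reads.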
